A study of Mus musculus with 8 samples.

Results

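The genes described here are 10 regulators of alternative splicing, taken by symbol from the 18671 genes of the expression table of bipotential mouse embryonic liver (BMEL) cells. Of these, 3 were grouped as epithelial regulators (Esrp1, Esrp2 and Rbm47) and the other 7 as regulators associated with mesenchymal splicing patterns (Rbfox2, Qk, Mbnl1, Mbnl2, Mbnl3, Celf1 and Ptbp1). All 10 were present in the table, and no filter on low values was applied, so all 10 were tested. RNA-seq was performed on 8 samples: 4 GRHL2 samples received a plasmid labelled pIGrhl2, which codes for human GRHL2 fused to a flag tag from the EEF1A1 promoter and for EGFP on the same transcript, and 4 control samples received pcDNA3. The cells of both groups were kept on collagen in RPMI medium with serum, IGFII, EGF and insulin, and RNA was taken 48 h after transfection. The plasmids thus differed by EGFP as well as by GRHL2. The share of cells that took up a plasmid is not given in the sources used here. The study describes the samples of a group as independent biological replicates, and the labels do not say whether the cultures or the transfections were separate.

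Alternative splicing joins different exons of one gene into different mRNAs. ESRP1 and ESRP2 (epithelial splicing regulatory proteins) bind RNA near regulated exons of genes such as Fgfr2, Cd44, Ctnnd1 and Enah and favour the exon choice of epithelial cells. RBM47 binds RNA, acts as a cofactor of APOBEC1 in RNA editing and also regulates splicing. RBFOX2, QK, the muscleblind proteins (MBNL), CELF1 and PTBP1 are expressed more broadly, and several of them favour exon choices that are seen in mesenchymal cells. In the liver, ESRP2 is known for a splicing program of maturing hepatocytes, and ZEB1, a repressor that drives epithelial-mesenchymal transition, is known to repress Esrp1. GRHL2 is a transcription factor that activates epithelial genes and opposes ZEB1.

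Values are given on the log2 scale as deposited, per transcript length. They were read as regularized logarithms (rlog) less the log2 of length, in which differences of low genes are shrunk, and the read depth of each sample is unknown. A difference of 1 would be a doubling. Calls are those of limma (Benjamini-Hochberg adjustment over all 18671 genes, adjusted p under 0.05), with the number of replicates always 4 per group. Samples that bear the same replicate number shared their deviations from the group means, as did replicates 1 with 2 and 3 with 4 across the groups, so a fit with the number as a block is given wherever it changes a call. Defining markers of liver epithelium were present (10 of 10 in the table, the lowest being Alb at a mean of 5.25 in control samples). Their summed level was 16.635 to 16.813 in control samples and 16.813 to 16.957 in GRHL2 samples, so the ranges met. This sum is mostly Krt8, Krt19 and Krt18 (control means 15.31, 15.05 and 14.76). Of 12 mesenchymal markers 8 were in the table, with a summed level of 15.3 to 15.5 in control samples and 15.0 to 15.1 in GRHL2 samples. That sum is mostly Vim, and over the 8 markers 4 fold changes were positive and 4 negative (median 0.046). Col1a2, Col3a1, Dcn and Lrat have no row. Endothelial markers (5 of 6) summed to 4.57 to 4.60 and 4.54 to 4.66, and blood and macrophage markers (5 of 8) to 6.60 to 6.77 and 6.78 to 6.85. The part of these markers in the results was not tested. In bulk samples, fewer cells of a type and less RNA per cell cannot be told apart.

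The Grhl2 row checks the labels. It stood at 4.68, 4.57, 4.42 and 4.44 in control replicates 1 to 4 and at 6.30, 6.96, 5.65 and 6.05 in GRHL2 replicates 1 to 4. Every GRHL2 sample exceeded every control sample, with a log2 fold change of 1.71 (SE 0.22, limma adjusted p = 0.00100). Reads from the human cDNA that aligned to the mouse gene and reads from the endogenous gene cannot be told apart in this row.

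Counted over the 10 genes, 3 were called higher (Esrp1, Esrp2 and Mbnl3), where 10.5% of all genes were called higher, and 0 were called lower by limma, where 5.91% of all genes were. At an unadjusted p under 0.05 the counts were likewise 3, against 18.4% of all genes, and 0, against 12.7%. With the replicate block, 3 were called higher against 18.2% of all genes and 2 lower (Qk and Ptbp1) against 13.9%. The GRHL2 samples lay entirely above the control samples for 3 of the 10 genes, against 14.3% of all genes, and entirely below for 1, against 9.47%. Of the 7 mesenchymal-associated genes, 1 called higher (14.3%) is near the background share, and so no result about them as a group. Tested gene by gene, the exact two-sided permutation p was 0.0286 for Esrp1, Esrp2, Mbnl3 and Celf1, the smallest that 4 samples against 4 allow, and from 0.114 to 0.80 for the other 6, with no adjustment. The permutations exchanged samples freely across replicate numbers, so they took no account of the deviations that equal numbers shared. The mean of the 3 epithelial genes less the mean of the other 7 was -2.58, -2.58, -2.45 and -2.44 in control replicates 1 to 4 and -2.29, -2.18, -2.18 and -2.12 in GRHL2 replicates 1 to 4.

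Esrp1 and Esrp2 were both higher in GRHL2 cells, whereas Rbm47 was not distinguishable between the groups. Esrp1 (ENSMUSG00000040728, chr4:11331933-11386783, minus strand, GRCm38) was at 3.02, 3.06, 3.01 and 3.02 in control replicates 1 to 4 and at 3.50, 3.77, 3.50 and 3.56 in GRHL2 replicates 1 to 4. The control samples lay close together, and every GRHL2 sample was above every control sample. The log2 fold change was 0.56 (SE 0.054, 95% confidence interval 0.43 to 0.68, adjusted p = 0.000246), or 1.47-fold on the shrunken scale. It ranked 162 from the top among all 18671 fold changes. The rise was 0.48, 0.71, 0.49 and 0.54 in the pairs of equal replicate number. Of its exon bases, 2.01% are shared with Gm26663 on the other strand. Esrp1 has the lowest level of the 10 genes, and the rlog shrinks differences of low genes, so this fold change is likely understated. Differences between replicates are shrunk too, so the narrow spread and the small SE are not read as precision.

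Esrp2 (ENSMUSG00000084128, chr8:106130319-106136974, minus strand) was at 9.84, 9.99, 9.93 and 9.87 in control replicates 1 to 4 and at 10.20, 10.29, 10.09 and 10.10 in GRHL2 replicates 1 to 4. Again the groups did not overlap, and the rise was seen in 4 of 4 pairs. It amounted to 0.27 (SE 0.058, 95% confidence interval 0.13 to 0.40, adjusted p = 0.0138), or 1.20-fold. Over replicates 1 and 2 the rise was 0.33, and over replicates 3 and 4 it was 0.20. Reads were counted without regard to strand, and 7.79% of the exon bases of Esrp2 are shared with Nfatc3 and 1810019D21Rik on the other strand. 1810019D21Rik changed by 0.26 (adjusted p = 0.00503) and Nfatc3 by -0.10 (adjusted p = 0.269). In the union mode of HTSeq that the methods name, reads over shared bases are counted for no gene.

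Rbm47 (ENSMUSG00000070780, chr5:66016549-66173118, minus strand) was at 8.46, 8.52, 8.57 and 8.51 in control replicates 1 to 4 and at 8.43, 8.42, 8.54 and 8.62 in GRHL2 replicates 1 to 4. The groups overlapped, with 1 GRHL2 sample above and 2 below all control samples. The difference of means was -0.012 (SE 0.057, adjusted p = 0.915), and its 95% confidence interval of -0.14 to 0.11 leaves out a rise of the size seen for Esrp2. Of its exon bases, 5.42% are shared with Gm26725 and Gm43323.

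**Figure D1:**
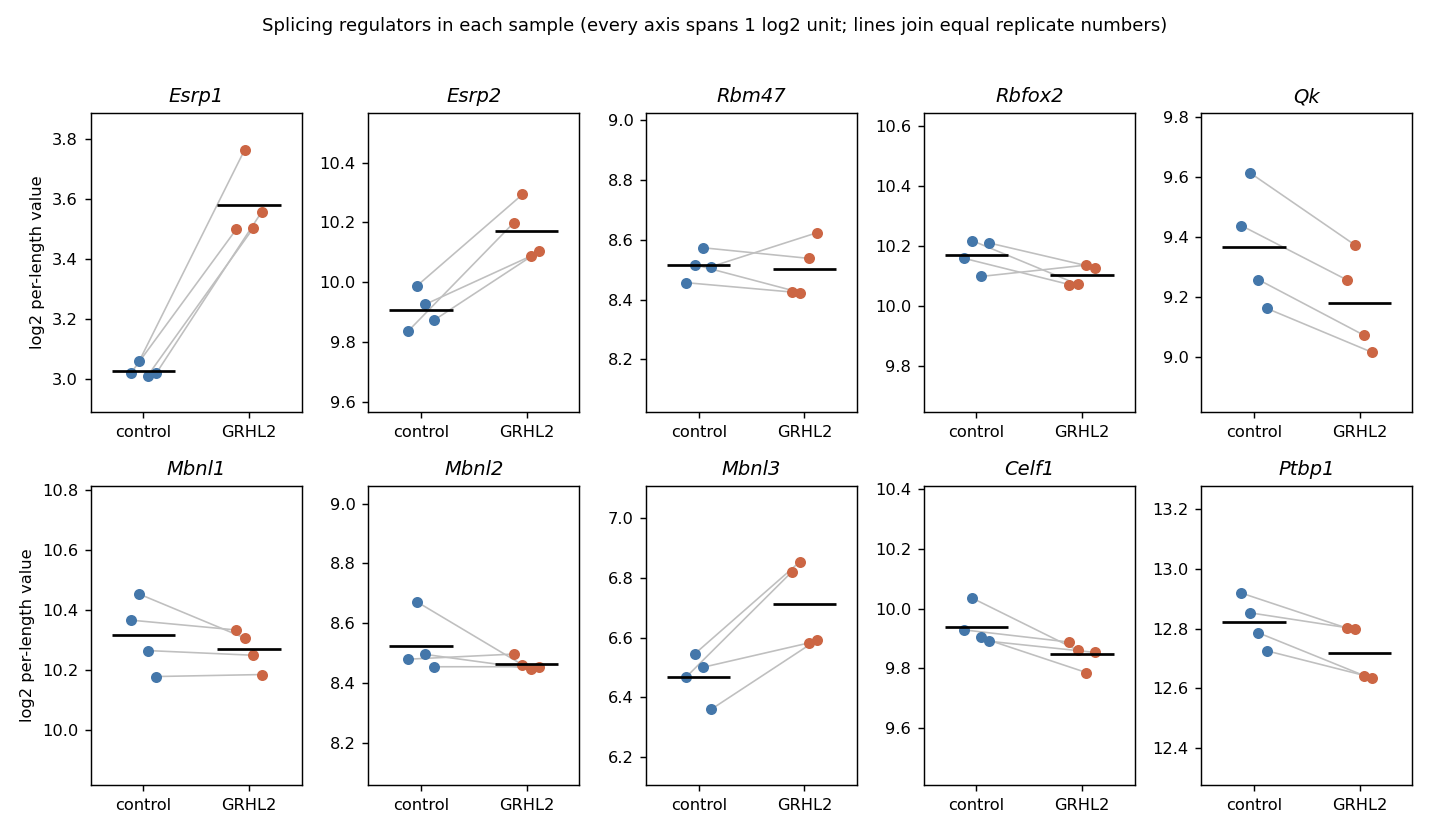
Level of each of the 10 splicing regulators in every sample, as log2 per-length values on axes that all span 1 unit; points are samples, black bars are group means and grey lines join samples of equal replicate number. All 4 GRHL2 samples lie above all 4 control samples for Esrp1, Esrp2 and Mbnl3 and below them for Celf1, while Qk and Ptbp1 are lower in each of 4 pairs with overlapping groups.

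Among the 7 mesenchymal-associated regulators, Mbnl3 was called higher, none was called lower without the block, and Qk and Ptbp1 were called lower once samples were compared within replicate numbers. The median log2 fold change of the 7 was -0.07, against 0.27 for the 3 epithelial regulators and 0.0066 for all genes. Fold changes ran from -0.19 to 0.24 and were negative for 6 of the 7.

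Of the 3 muscleblind genes, Mbnl3 was called higher and the other two were not called. Mbnl1 and Mbnl2 encode the muscleblind proteins best known for switching exons during tissue maturation, and Mbnl3 is their less abundant relative. Mbnl3 (ENSMUSG00000036109, chrX:51117269-51206532, minus strand) was at 6.47, 6.54, 6.50 and 6.36 in control replicates 1 to 4 and at 6.82, 6.85, 6.58 and 6.59 in GRHL2 replicates 1 to 4. The groups did not overlap, although the lowest GRHL2 sample exceeded the highest control sample only narrowly. Mbnl3 rose by 0.24 (SE 0.073, 95% confidence interval 0.080 to 0.41, adjusted p = 0.0482), or 1.18-fold, a call just inside the threshold. With the replicate block its adjusted p was 0.00641. The call was lost in 11 of 22 alternative analyses, with the direction kept in all 22, and leaving out single samples gave 0.20 to 0.29 with adjusted p from 0.0366 to 0.118. It was lost without any 1 of the 4 control samples and without GRHL2 replicate 1 or 2. Over replicates 1 and 2 the rise was 0.33, and over replicates 3 and 4 it was 0.16.

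Mbnl1 (ENSMUSG00000027763, chr3:60472830-60629750, plus strand) was at 10.37, 10.45, 10.26 and 10.18 in control replicates 1 to 4 and at 10.33, 10.31, 10.25 and 10.18 in GRHL2 replicates 1 to 4. Every GRHL2 sample lay within the range of the control samples (difference -0.05, 95% confidence interval -0.19 to 0.098, adjusted p = 0.671). Mbnl2 (ENSMUSG00000022139, chr14:120275669-120431697, plus strand) was at 8.48, 8.67, 8.50 and 8.45 in control replicates 1 to 4 and at 8.50, 8.46, 8.45 and 8.45 in GRHL2 replicates 1 to 4. Control replicate 2 stood highest and the other 7 samples lay close together (difference -0.06, 95% confidence interval -0.18 to 0.062, adjusted p = 0.50). The gap between Mbnl3 and Mbnl1 was -3.85 ± 0.069 in control cells and -3.56 ± 0.093 in GRHL2 cells, and that between Mbnl3 and Mbnl2 was -2.06 ± 0.063 and -1.75 ± 0.13 (SD, n = 4 each). These gaps were chosen after the values were seen and are given as a description, with no weight on any test of them.

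Qk encodes Quaking, an RNA-binding protein of the STAR family that also promotes the formation of circular RNAs during epithelial-mesenchymal transition. Qk (ENSMUSG00000062078, chr17:10202601-10319854, minus strand) was at 9.44, 9.61, 9.26 and 9.16 in control replicates 1 to 4 and at 9.26, 9.37, 9.07 and 9.01 in GRHL2 replicates 1 to 4. It was lower in the GRHL2 sample of every pair, while the groups overlapped, and replicates 1 and 2 stood above replicates 3 and 4 by 0.32 in control cells and by 0.27 in GRHL2 cells. The difference of -0.19 (SE 0.11, 95% confidence interval -0.43 to 0.052) was not called without the block (adjusted p = 0.269) and was called with the replicate block (SE 0.035, 95% confidence interval -0.27 to -0.11, adjusted p = 0.00414).

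Ptbp1 encodes the polypyrimidine tract-binding protein, which represses many exons, among them an exon that Ptbp2 needs for a stable mRNA. Ptbp1 (ENSMUSG00000006498, chr10:79854427-79864771, plus strand) was at 12.92, 12.85, 12.79 and 12.73 in control replicates 1 to 4 and at 12.80, 12.80, 12.64 and 12.64 in GRHL2 replicates 1 to 4. It too was lower in 4 of 4 pairs with overlapping groups. The difference was -0.10 (95% confidence interval -0.23 to 0.028), with an adjusted p of 0.269 without the block and 0.0218 with the replicate block. Of its exon bases, 20.7% are shared with Plppr3, Gm17134 and E130317F20Rik on the other strand, and reads there are counted for no gene in the union mode named in the methods.

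Celf1 and Rbfox2 were not called in either fit. Celf1 (ENSMUSG00000005506, chr2:90940382-91019497, plus strand), an RNA-binding protein that opposes MBNL proteins at many exons, was at 9.93, 10.03, 9.90 and 9.89 in control replicates 1 to 4 and at 9.89, 9.86, 9.79 and 9.85 in GRHL2 replicates 1 to 4. The GRHL2 samples all lay below the control samples, but the nearest samples of the groups both round to 9.89. The difference was -0.09 (95% confidence interval -0.20 to 0.015, adjusted p = 0.225), and with the replicate block the interval was -0.18 to -0.0073 and the adjusted p 0.0930. Rbfox2 (ENSMUSG00000033565, chr15:77078990-77307004, minus strand), a regulator of exons in epithelial-mesenchymal transition, was at 10.16, 10.22, 10.10 and 10.21 in control replicates 1 to 4 and at 10.07, 10.07, 10.14 and 10.13 in GRHL2 replicates 1 to 4. The groups overlapped, and 3 of 4 pairs were lower in GRHL2 cells. The difference of -0.07 (95% confidence interval -0.17 to 0.031) had an adjusted p of 0.331, and of 0.212 with the replicate block.

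**Figure D2:**
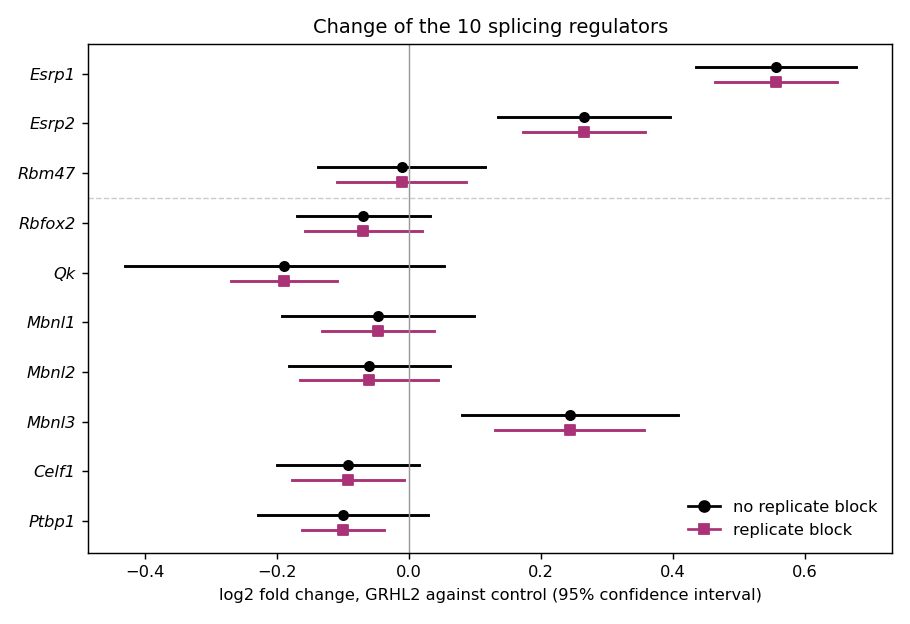
Log2 fold change of each regulator, GRHL2 against control, with its 95% confidence interval, without (black circles) and with (purple squares) the replicate number as a block; the dashed line separates the epithelial genes from the others. The intervals of Esrp1, Esrp2 and Mbnl3 lie above 0 in both fits, and those of Qk, Celf1 and Ptbp1 span 0 without the block and lie below 0 with it.

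The levels of the 10 genes spanned 9.79 log2 units in control cells. Per transcript length, Ptbp1 was highest in control cells (12.82 ± 0.083, SD, n = 4), followed by Mbnl1 (10.32 ± 0.12) and Rbfox2 (10.17 ± 0.055). Next came Celf1 (9.94 ± 0.066), Esrp2 (9.91 ± 0.066), Qk (9.37 ± 0.20), Mbnl2 (8.53 ± 0.099), Rbm47 (8.51 ± 0.048), Mbnl3 (6.47 ± 0.078) and Esrp1 (3.03 ± 0.022). The ranges over samples overlapped between Mbnl1 and Rbfox2, between Celf1 and Esrp2 and between Mbnl2 and Rbm47, so these neighbours are not separated by their spread. The epithelial genes were not alike in level: Esrp2 lay among the broadly expressed regulators, whereas Esrp1 was below the table median of 6.44, with 28.6% of all genes below it.

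In GRHL2 cells, Esrp2 (10.17 ± 0.095) moved from the fifth to the third place, above Celf1 (9.85 ± 0.043) with no overlap and level with Rbfox2 (10.10 ± 0.035), whose range it overlapped. Rbm47 and Mbnl2 exchanged places within overlapping ranges. Esrp1 stayed in the last place (3.58 ± 0.13). The gap from Esrp1 to Esrp2 in per-length level was -6.88 ± 0.052 in control cells and -6.59 ± 0.077 in GRHL2 cells (SD, n = 4 each; a description, chosen after the values were seen), and Esrp2 remained 96.3-fold above Esrp1 in GRHL2 cells, after 118-fold in control cells. Both folds are on the deposited scale, and with transcript length added back they were 36.5-fold and 44.7-fold. When the mean GENCODE M21 transcript length was added back, which ranks the genes by reads rather than per length, Celf1 and Qk moved up to places 2 and 3 and Esrp2 down to place 7, while Ptbp1, Mbnl3 and Esrp1 kept places 1, 9 and 10.

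**Figure D3:**
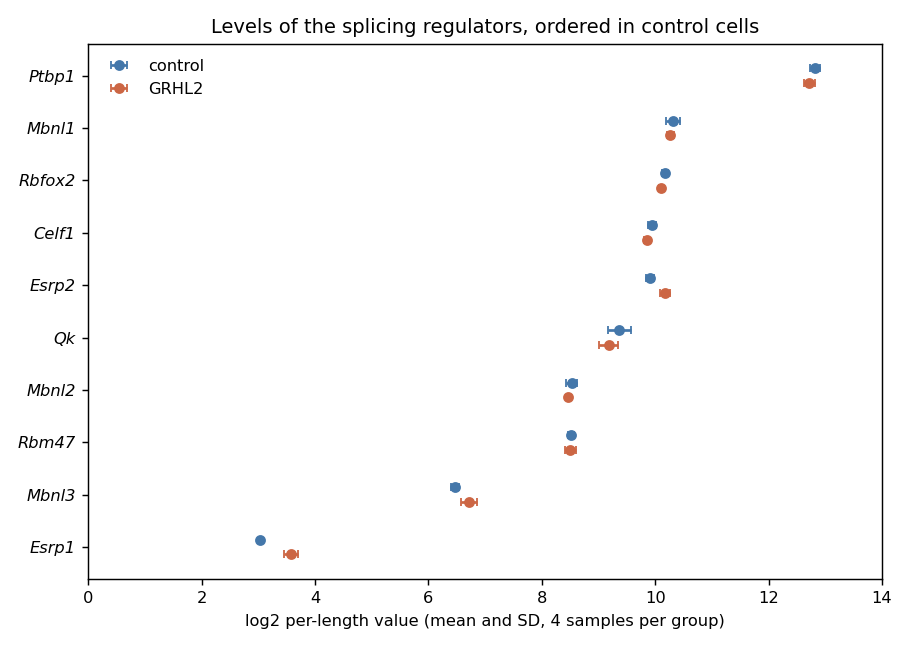
Mean level of the 10 regulators on the log2 per-length scale, with the SD over 4 samples as error bars, in control cells (blue) and GRHL2 cells (orange), ordered by the control mean. Ptbp1 is highest at 12.82 and Esrp1 lowest at 3.03 in control cells, and Esrp2 is the gene that passes Celf1 in GRHL2 cells.

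Among the 5 genes of the table whose values over the 8 samples were most like those of Esrp1, of 17766 genes with a mean of at least 0, were Fgf8, Efs, Nutm1 and Epn3. Pearson's r was 0.998 for Fgf8, Efs and Nutm1 and 0.997 for Epn3. These correlations describe 8 points that fall into the 2 groups, and they carry no p. Of these 4, Epn3, an epsin of endocytic coats, had the highest level (9.04 in control cells) and changed by 0.65. Nutm1 changed by 0.52, Fgf8 by 0.52 and Efs by 0.15, a direction that their choice by likeness to Esrp1 fixes.

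Promoter sequences from RefSeq (GRCm38.p6, 250 bases before to 50 after a transcription start) were at hand for 7 of the 10 genes, the exceptions being Esrp1, Esrp2 and Rbfox2. They were searched on both strands for the GRHL core AACCNG, its extended forms AACCNGTT, ACCGGTT and AACCGGTT, which contain or overlap each other, and the ZEB and SNAI box CACCTG. None of the 7 genes held AACCNGTT, ACCGGTT, AACCGGTT or CACCTG in these windows. Of 32851 promoters of this length, 2.09%, 1.02%, 0.146% and 20.2% held them. The core AACCNG, present in 39.4% of all promoters, was found at the 3 starts of Rbm47 and the 2 starts of Mbnl1 and not at those of Qk, Mbnl2, Mbnl3, Celf1 and Ptbp1. Of the genes with a promoter entry, Mbnl3 is the one called higher without the block, so its window (chrX:51205941-51206240, minus strand) is shown, beside the second Rbm47 start (chr5:66150929-66151228, minus strand), which holds 2 matches of the core in the epithelial gene that was not called. Both are printed 5′ to 3′ on the strand of the gene, and capitals mark matches of AACCNG or its reverse complement.
Mbnl3: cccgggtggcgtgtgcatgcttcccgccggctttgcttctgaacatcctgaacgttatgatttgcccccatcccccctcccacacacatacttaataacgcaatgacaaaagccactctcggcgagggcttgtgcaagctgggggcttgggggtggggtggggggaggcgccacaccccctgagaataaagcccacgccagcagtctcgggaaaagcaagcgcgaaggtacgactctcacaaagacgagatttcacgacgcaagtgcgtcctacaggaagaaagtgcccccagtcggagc
Rbm47: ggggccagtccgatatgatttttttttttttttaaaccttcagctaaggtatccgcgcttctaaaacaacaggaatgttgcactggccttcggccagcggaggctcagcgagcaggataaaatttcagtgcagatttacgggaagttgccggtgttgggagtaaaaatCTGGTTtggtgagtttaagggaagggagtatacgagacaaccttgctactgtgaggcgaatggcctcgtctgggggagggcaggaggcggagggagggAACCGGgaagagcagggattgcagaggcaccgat
A match is a run of letters, not a bound site, and none of these windows was tested for binding here.

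Of the 11 paralogs of the 10 genes on a list chosen for their families, 9 were in the table, and 1 was called in each direction (11.1% each, against 10.5% of all genes called higher and 5.91% called lower). Ptbp2, the relative of Ptbp1 that is most abundant in neurons, was at 9.24, 9.48, 9.25 and 9.17 in control replicates 1 to 4 and at 9.03, 9.09, 8.97 and 8.91 in GRHL2 replicates 1 to 4. The groups did not overlap, and Ptbp2 fell by 0.29 on the log2 scale (SE 0.071, adjusted p = 0.0235). Celf2, a relative of Celf1, was at 8.54, 8.60, 8.48 and 8.51 in control replicates 1 to 4 and at 8.70, 8.76, 8.66 and 8.66 in GRHL2 replicates 1 to 4. It rose without overlap by 0.16 (adjusted p = 0.0392), with an adjusted p of 0.00745 in the replicate block. Ptbp3, the third member of the family of Ptbp1, differed by 0.13 and was called with the replicate block only (adjusted p = 0.0604 and 0.0199). A1cf, which like Rbm47 is a cofactor of APOBEC1, differed by 0.0039 and was not called. Rbfox1 and Rbm46 have no row in the table. No paralog was called higher with an equal median, with replicates 3 and 4 averaged or in 6 of 8 fits that left out 1 sample (all but those without control replicate 2 or GRHL2 replicate 4). The count higher was 4 with an equal upper quartile (against 16.4% of all genes), with an equal sum (15.6%) and with the term for replicates 1 and 2 against 3 and 4 (17.5%). None was called lower with replicates 3 and 4 averaged or without control replicate 1 or GRHL2 replicate 3. The count lower was 2 with an equal median (against 6.73% of all genes) and with the term for replicates 1 and 2 against 3 and 4 (13.3%). Ptbp3 and A1cf were named after their values were seen.

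SR proteins bind exonic enhancers and recruit the spliceosome, and of the 12 present, 3 fell (25%, against 5.91% of all genes) and none was called higher (against 10.5%). Fold changes were negative for 11 of the 12, against 46.1% of all genes, and their median was -0.16, where that of all genes was 0.0066. The 3 were Srsf11, Tra2b and Srsf7. Srsf11 was at 11.89, 12.02, 11.71 and 11.70 in control replicates 1 to 4 and at 11.64, 11.57, 11.41 and 11.44 in GRHL2 replicates 1 to 4, with no overlap, and fell by 0.32 on the log2 scale (SE 0.081, adjusted p = 0.0263). Tra2b, an SR-like protein, fell by 0.26 (adjusted p = 0.0376) and Srsf7 fell by 0.16 (adjusted p = 0.0424). With the replicate block, 10 of the 12 were called lower (83.3%, against 13.9% of all genes). In the fit without the block, the count lower was 0 without control replicate 1, GRHL2 replicate 3 or GRHL2 replicate 4, 1 without control replicate 2, control replicate 3 or GRHL2 replicate 1, and 0 with replicates 3 and 4 averaged.

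The kinases that phosphorylate SR proteins held the largest decreases among the splicing lists. Clk4 was at 9.75, 10.02, 9.60 and 9.59 in control replicates 1 to 4 and at 9.04, 9.20, 9.04 and 9.15 in GRHL2 replicates 1 to 4. Clk1 was at 10.26, 10.53, 10.15 and 10.20 in control replicates 1 to 4 and at 9.73, 9.74, 9.84 and 9.87 in GRHL2 replicates 1 to 4. Neither gene showed any overlap between groups, and control replicate 2 was the highest sample of both. Clk4 fell by 0.63 on the log2 scale (SE 0.092, adjusted p = 0.00179) and Clk1 fell by 0.49 (SE 0.081, adjusted p = 0.00353). Clk2 (-0.10), Clk3 (-0.03), Srpk1 (0.04), Srpk2 (0.12) and Srpk3 (-0.05) were not called, so 2 of 7 (28.6%) were called lower, against 5.91% of all genes, and none higher, against 10.5%.

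Of 23 hnRNP proteins, abundant RNA-binding proteins that often silence exons, 3 fell (13%, against 5.91% of all genes), none was called higher (against 10.5%) and 21 had a negative fold change, as did 46.1% of all genes (median -0.09). The count lower was 1 without control replicate 3, GRHL2 replicate 1 or GRHL2 replicate 2 and with replicates 3 and 4 averaged. Pcbp1, which binds poly(C) stretches, was at 12.32, 12.32, 12.27 and 12.27 in control replicates 1 to 4 and at 12.05, 12.09, 12.02 and 12.02 in GRHL2 replicates 1 to 4. It fell by 0.25 on the log2 scale (adjusted p = 0.00185), and Hnrnph3 and Hnrnpc fell by 0.23 and 0.14 (adjusted p = 0.0235 and 0.0478). Of 36 core spliceosome genes, 3 fell, none was called higher (against 10.5% of all genes) and 34 had a negative fold change, against the same 46.1% (median -0.08). The 8.33% called lower is near the 5.91% of all genes. The count lower was 1 without control replicate 1 and 5 without control replicate 4 or GRHL2 replicate 2, and 1 with replicates 3 and 4 averaged. The 3 called were Prpf3 (-0.29, adjusted p = 0.0252) and Prpf6 (-0.24, adjusted p = 0.0179), which belong to the U4/U6.U5 particle, and Cdc5l (-0.26, adjusted p = 0.0152), a subunit of the PRP19 complex. With the replicate block, 11 of 23 hnRNP genes (47.8%) and 17 of 36 core genes (47.2%) were called lower, against 13.9% of all genes, and again none higher, against 18.2%. These genes are abundant: the median control level was 11.41 for SR proteins, 11.20 for hnRNP proteins and 10.72 for core spliceosome genes, against 6.44 for the table, and the part of level in these counts was not tested. After a correction of each sample for transcript GC content together with the replicate block, 9 SR, 8 hnRNP and 17 core genes were called lower, against 14.7% of all genes. An equal upper quartile with the block gave 8, 6 and 14, against 11.2%, and an equal sum with the block 7, 7 and 15, against 10.8%.

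The other 41 alternative splicing regulators in the table moved both ways, with 3 called higher (7.32%, against 10.5% of all genes), 5 called lower (12.2%, against 5.91%) and a median of -0.03. The count higher was 1 with an equal median and without control replicate 1 or 3, and 3 were called lower with replicates 3 and 4 averaged. Rbpms2, an RNA-binding protein of smooth and heart muscle, was at 5.62, 5.72, 5.73 and 5.63 in control replicates 1 to 4 and at 6.22, 6.57, 6.27 and 6.26 in GRHL2 replicates 1 to 4. Its rise of 0.66 (SE 0.075, adjusted p = 0.000527) exceeded that of Esrp1 on this scale, with no overlap between groups. Rbm24 (0.16) and Msi1 (0.15) also rose, from levels of 2.69 and 3.77. The decreases were those of Rbm39 (-0.38), Zranb2 (-0.29), Rbm38 (-0.28), Fubp1 (-0.26) and Srrm4 (-0.19). Rbm39 couples transcription to splicing, Zranb2 interacts with spliceosomal proteins, and Srrm4 drives neuronal microexons. Rbm24, Msi1, Fubp1 and Srrm4 were named after their values were seen. With the replicate block, 4 were called higher, where 18.2% of all genes were, and 14 lower (34.1%, against 13.9%).

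**Figure D4:**
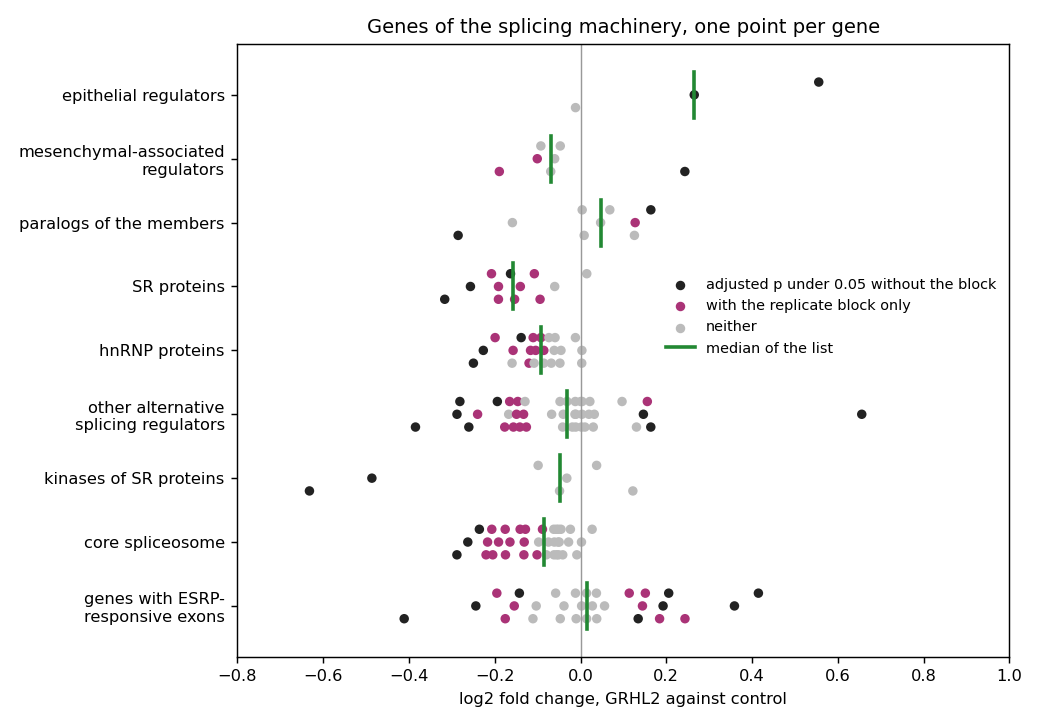
Log2 fold change, GRHL2 against control, of each gene of 9 lists. The last list holds genes with exons known to respond to ESRP proteins, and the others hold splicing genes. Black points were called without the block, purple points with the replicate block only and grey points in neither fit. Green bars are list medians (vertical position within a list carries no value). The SR, hnRNP and core spliceosome lists have medians of -0.16, -0.09 and -0.08 and no gene called higher, while the epithelial regulators have a median of 0.27.

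Genes that carry exons known to respond to ESRP proteins were examined at the level of the whole gene, since the table holds no exon or isoform values and exon choice cannot be read from it. Of 30 such genes, 5 rose (16.7%, against 10.5% of all genes), 3 fell (10.0%, against 5.91%) and 22 were not called, with a median of 0.014 that changed to -0.02 when all samples were set to the same median. Fgfr2, whose epithelial isoform is the best known ESRP product, was at 3.99, 3.90, 4.10 and 3.90 in control replicates 1 to 4 and at 4.28, 4.44, 4.47 and 4.36 in GRHL2 replicates 1 to 4. The groups did not overlap, and Fgfr2 rose by 0.41 (SE 0.057, adjusted p = 0.00130). Epb41l5, a polarity protein of the band 4.1 family, rose by 0.36 (adjusted p = 0.00342). Ctnnd1 (p120 catenin), Atp6v1c2 and Itga6 rose by 0.21, 0.19 and 0.13. The decreases were those of Fnip1 (-0.41, adjusted p = 0.0150), Myo9a (-0.24, adjusted p = 0.00947) and Osbpl3 (-0.14, adjusted p = 0.0391). Ctnnd1, Atp6v1c2, Itga6 and Osbpl3 were named after their values were seen. Mbnl1 is on this list too and was not called. The replicate block gave 10 called higher, where 18.2% of all genes were, and 6 lower (20%, against 13.9%). In the fit without it, 2 were called higher with an equal median and with replicates 3 and 4 averaged. Leaving out 1 sample gave 4 higher without control replicate 2, 2 without control replicate 3, control replicate 4 or GRHL2 replicate 1, and 3 without each of the others, with 2 called lower every time.

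Of 8 transcription factors known to act upstream of Esrp1 and Esrp2, Grhl2 among them, 3 rose (against 10.5% of all genes), 2 fell (25%, against 5.91%) and 3 were not called. Grhl2 is the transfected gene, and beside it the genes that rose were Ovol1 and Ovol2. Without control replicate 1, 1 was called lower. Ovol1 and Ovol2 encode repressors that favour the epithelial state. Ovol1 was at 4.36, 4.38, 4.35 and 4.43 in control replicates 1 to 4 and at 4.99, 5.25, 4.84 and 4.78 in GRHL2 replicates 1 to 4, and rose by 0.59 (adjusted p = 0.00210). Ovol2 rose by 0.40 (adjusted p = 0.000549), with control samples between 3.65 and 3.66 and GRHL2 samples between 3.98 and 4.20. Neither gene showed overlapping groups.

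Zeb1, the repressor of Esrp1, was at 8.34, 8.46, 8.24 and 8.20 in control replicates 1 to 4 and at 7.97, 8.09, 8.04 and 7.87 in GRHL2 replicates 1 to 4. It fell by 0.32 on the log2 scale with no overlap (adjusted p = 0.0125), and Snai2, a zinc finger repressor of epithelial genes, fell by 0.34 (adjusted p = 0.0175). Zeb2 was at 7.48, 7.93, 7.35 and 7.31 in control replicates 1 to 4 and at 7.23, 7.57, 6.94 and 6.92 in GRHL2 replicates 1 to 4. Its groups overlapped, and the difference of -0.35 was called only with the replicate block (adjusted p = 0.184 without and 0.000428 with it). Snai1 (-0.00088) and Twist1 (0.023, at a level of -0.41 in control cells) were not called in either fit. Among markers of the cell types, Epcam (1.75) and Cdh1 (0.29) rose and Afp (-0.21) fell in the liver epithelial list. In the mesenchymal list Vim (-0.37) fell, while Fn1 (0.24) and Pdgfrb (0.11, at a level of -0.23 in control cells) rose.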

How the data were processed

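RNA-seq of 8 BMEL samples (4 GRHL2, 4 control, 48 h) was analysed, with groups and replicate numbers taken from the labels. The submitters' processing notes name HISAT2 2.2.1, HTSeq 0.9.1, DESeq2 1.40.2 and the builds mm10 and GRCm39. According to the methods, reads were counted on exons without strand in union mode, genes with under 10 cumulated reads were dropped and rlog values were corrected for transcript length. This text was assumed to hold for BMEL cells. The deposited table is named for FPKM, but the authors' values are log2 values: 7190 of 149368 are below 0. Read totals cannot be derived from them, so the depth per sample, and the precision it gives, is unknown.

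Here, limma 3.58.1 in R 4.3.3 fitted the 2 groups over all 18671 genes (moderated statistic with a trend of variance on level; p adjusted by Benjamini-Hochberg, threshold 0.05), and the script was tested on simulated data. Single values were tested by an exact two-sided permutation test (70 assignments, smallest p 0.0286). Samples of equal number, taken from the labels, deviated together (Pearson's r across genes 0.474, 0.565, 0.549 and 0.645 for the pairs, mean 0.558, against -0.183 for other combinations), and so were taken as paired. Different numbers within replicates 1 and 2 or within 3 and 4 also correlated (0.34 to 0.60), and combinations across that division were negatively correlated, so the pairing is not told apart from this division. Deviations from a group mean cancel out over the samples of the group. The negative correlations are therefore largely forced by the positive ones and are no separate evidence. The authors' table held no column without a sample.

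The members and lists were chosen with earlier results of these data known. Named genes were the 10 members, Grhl2, up to 4 called genes with the greatest change per list (all genes in lists of up to 8) and the 5 genes most correlated with Esrp1, of which 1 is not reported here. Positions are from GENCODE M21 on GRCm38 by symbol. Alternatives were 3 scalings (equal median, upper quartile or sum), the replicate block, a term for replicates 1 and 2 against 3 and 4 (a division seen in the data, not in the labels), replicates 3 and 4 averaged, other variance models, a minimum mean of 0, a log2 fold change beyond 0.25 and each sample left out. Scaling with the block and GC correction were added after seeing the data.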

Additional observations from a re-analysis of the deposited data

Results flagged for a closer look

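In 22 sets of 4 samples (Grhl2 and the 10 splicing regulators in each of the 2 groups), 1 value stood apart from its group. Esrp1 in control replicate 2 was 3.06 on the log2 scale, and the next sample was at 3.02. The gap took 0.831 of the range of the 4 control samples, against a critical value of 0.829. Chance gives such a gap in about 1 of 20 groups, so 1 of 22 is the number that chance gives. The range of the 4 control samples was small beside the difference from the GRHL2 samples, which lay between 3.50 and 3.77.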

How the results depend on the processing

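Esrp1 was called higher in all 22 alternatives and Esrp2 in 21, with 0.27 (adjusted p = 1) against a log2 fold change beyond 0.25. Leaving out single samples gave 0.49 to 0.58 for Esrp1 and 0.22 to 0.29 for Esrp2. Mbnl3 lost its call at 0.21 with an equal median (adjusted p = 0.113), 0.27 with replicates 3 and 4 averaged (0.0710), 0.24 with no mean-variance trend (0.0638), robust empirical Bayes (0.0519) or a change beyond 0.25. The call of Mbnl3 was also lost in 6 of 8 fits without single samples (all but those without GRHL2 replicates 3 and 4), and these 6 gave 0.20 to 0.27. Rbm47 changed sign, with no call, at 0.011 (equal upper quartile) and 0.012 (equal sum), also with the replicate block, and ran from -0.052 to 0.015 without single samples. With the replicate block Qk (-0.19) and Ptbp1 (-0.10) gained calls, as they did with the term for replicates 1 and 2 against 3 and 4. Qk gained one at -0.17 with the block and an equal upper quartile or sum and at -0.16 with the block and GC correction, and Ptbp1 at -0.077 (equal sum) and -0.13 (GC correction). The 10 genes thus had 2 lower calls in these block fits, but 1 with an equal upper quartile, and 1 higher call beyond 0.25. Rbfox2, Mbnl1, Mbnl2 and Celf1 had no call in any of the 22.

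Over all genes, 1957 were called higher and 1104 lower (63.9% higher), and 1119 and 1256 (47.1%) with an equal median, 3064 and 972 (75.9%) with an equal upper quartile and 2912 and 869 (77.0%) with an equal sum. The replicate block gave 3396 and 2589, the term for replicates 1 and 2 against 3 and 4 gave 3270 and 2478, and replicates 3 and 4 averaged gave 1328 and 521. A change beyond 0.25 left 129 and 29. With the block, an equal upper quartile gave 4583 and 2091, an equal sum 4943 and 2018 and GC correction 3159 and 2751. Without single samples the counts were 1326 to 1848 and 690 to 1036. Of the 3061 calls, 3048 were also made with the block. Scaling moved the median fold change of all genes by less than 0.1. The causes of these changes were not tested.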
